A study of Mus musculus with 10 samples.

Results

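This report describes 149 alternative splicing events, of 3126 on the array, whose transcripts read much higher in mouse testis than in 9 other tissues. Each event was measured by 7 probes. Probes C1 and C2 lie in the exons that flank an alternative exon, A lies in the alternative exon, C1:A and A:C2 cross the junctions made when that exon is included, and C1:C2 crosses the junction made when it is skipped. What the last probe, INT, measures is not given in the labels. Events were selected on the measured level, the mean of C1 and C2 after each array was centred on its median: the level in testis had to exceed the highest of the other tissues by 1.5 units or more. That rule took 4.77% of all events. The values are the authors' own, on a compressed scale from 0 to 8.66 whose base is not stated, so differences are given in units and not as folds.

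The samples were pooled total RNA from testis and from liver, kidney, spleen, brain, lung, heart, muscle, intestine and salivary of mice of the CD1 strain, an outbred laboratory stock. There was 1 sample per tissue, with no treatment, and the labels used here give neither the age of the mice nor the number pooled. No difference between tissues could therefore be tested, and every value describes these 10 arrays. In RNA of a whole tissue, fewer cells of a type and less RNA per cell cannot be told apart. The table pairs no event with a gene, so events are named by number, and the testis label was not checked against germ cell markers.

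Most cells of the adult testis are germ cells that pass through mitosis, meiosis and the remodelling of spermatids into sperm, beside Sertoli cells that nurse them and Leydig cells that make testosterone. Testis is known for many transcripts that other tissues hardly make, and for its own choices of exons in transcripts made elsewhere. A flanking probe reads the transcripts that contain its exon. The exon body and junction probes read particular forms, and their values depend on the amount of transcript as well as on the form made.

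In testis, the level of the 149 events ran from 3.02 to 7.71 units as deposited, with a median of 5.35, against a median of 2.55 over all events there. In each of the other tissues the median of the 149 events lay below that of all events, from 1.68 in salivary and in heart to 2.21 in brain. This split is what the rule asked for and is a description only. Brain was the highest of the other tissues for 33 events, liver for 31, kidney for 25, spleen for 18, heart and salivary for 11 each, intestine for 10, lung for 7 and muscle for 3. As a share of the 149, against the share of all 3126 events, these are 22.1% against 18.4% for brain, 20.8% against 19.3% for liver, 16.8% against 11.9% for kidney and 12.1% against 9.95% for spleen. The share of the 149 was the smaller one in the remaining tissues, with 7.38% against 11.6% for heart, 7.38% against 7.52% for salivary and 6.71% against 8.89% for intestine. For lung it was 4.7% against 6.01%, and for muscle 2.01% against 6.43%.

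A probe is called bright below where it exceeded the 95th percentile of the INT probes on the same array, which lay between 2.80 in liver and 3.40 in salivary. A dim probe is not evidence of an absent transcript. Both flanks were bright in testis in 141 of the 149 events (25.6% of all events), which the rule on the level favours. In 66 events both flanks were dim in each of the other 9 tissues, and in 83 a flank was bright in at least 1 of them. The rule favours dim flanks in those tissues, and the same counts were not made over all events. Both flanks were bright together in 29 events in liver, 22 in kidney, 16 in brain, 16 in heart and 11 in intestine, but in 4 in muscle, 2 in lung, 2 in spleen and 1 in salivary. Those last 4 tissues were also the ones with the smallest shares over all events, 8.16% to 14.4%, against 22.2% to 34.2% in the first 5. The limit for bright was higher in those last 4, at 3.25 to 3.40, than in the first 5, at 2.80 to 3.12. These counts therefore depend on the limit of each array and do not rank the tissues by level.

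**Figure D1:**
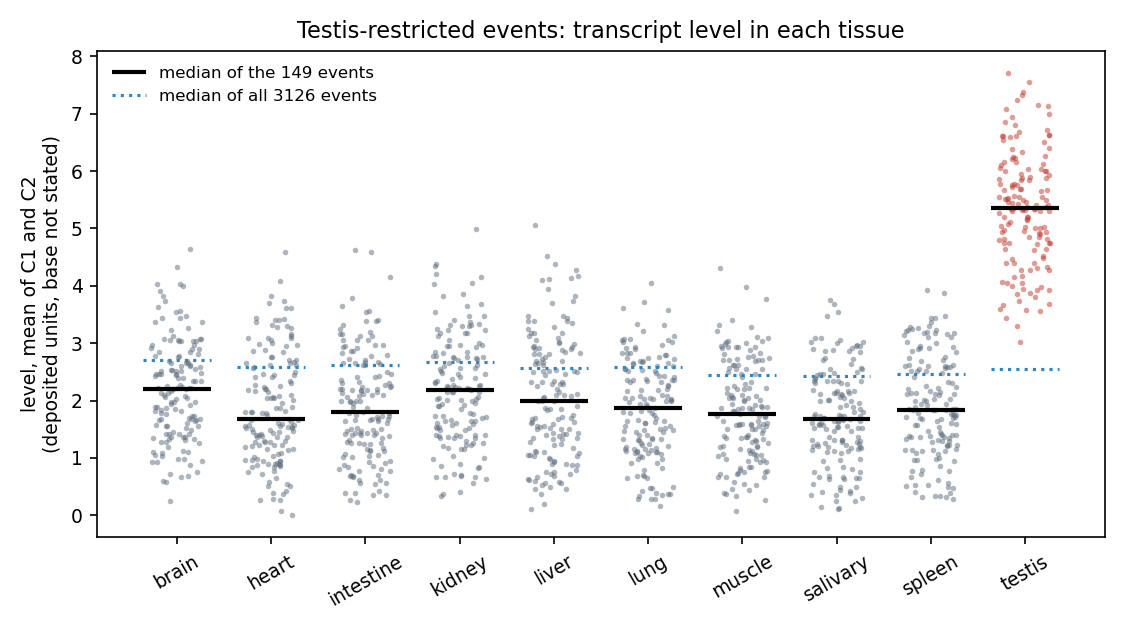
Transcript level (mean of C1 and C2, deposited units) of each of the 149 events in each tissue, 1 point per event, with the median of these events (black bar) and of all 3126 events (dotted blue bar). The testis points lie between 3.02 and 7.71 around a median of 5.35, and in the other tissues the medians of the 149 lie between 1.68 and 2.21, below those of all events.

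The margin, the testis value minus the highest of the other 9 tissues on centred arrays, was under 2 units in 51 events, from 2 to below 3 in 50 and 3 or more in 48. The largest margins belonged to Ben3870 and Ben1814. The level of Ben3870 was 7.16 in testis and between 0.978 and 1.93 elsewhere, a margin of 5.30. That of Ben1814 was 7.24 in testis and between 0.980 and 1.99 elsewhere, a margin of 5.27. Just inside the threshold stood Ben4192 with a margin of 1.502 and Ben681 with 1.52. Ben4016 and Ben3983, both with 1.49, stood just outside it. Ben4192 is less confined than the label of the group says, with a level of 5.35 in testis but 3.83 in heart, 3.54 in kidney and 3.20 in spleen.

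The number of events depended on how the arrays were scaled. After quantile normalization, which gives all arrays one distribution, 87 events met the rule, and all 87 were among the 149. Deposited values spread more in testis (SD 1.42 units) and in liver (1.43) than in the other arrays (1.18 to 1.27). Testis still had the most events by this rule after quantile normalization, followed by brain with 71 and liver with 24.

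The 2 flanks did not always move together. The C1 margin reached 1.5 in 125 of the 149 events (4.8% of all events) and the C2 margin in 129 (5.37% of all). Both did so in 106, C1 alone in 19, C2 alone in 23, and neither in 1, Ben1702, named after its values were seen. The widest gap was in Ben1125, whose C2 probe read 6.32 in testis and from 0 to 1.53 elsewhere, while C1 read 0.279 in testis and 0.423 to 1.27 elsewhere. The reverse held in Ben3544, where C1 read 7.03 in testis and 1.53 to 2.77 elsewhere, and C2 read 2.01 in testis and 1.79 to 2.92 elsewhere. In both events A and all 3 junction probes read lower in testis than in the highest of the other tissues. Their place among the 149 thus rests on 1 flanking probe each.

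The A probe was bright in testis in 120 of the 149 events. Bright A and junction probes were not counted over all events, so this count and those given by set below have no baseline. The median A value in testis was 4.85 in the 149 events and 2.24 over all events. The A probe had a margin of 1.5 or more in 103 events, 69.1%, against 4.86% of all events. The inclusion junctions did so in 90 events for C1:A (4.86% of all) and 97 for A:C2 (4.64% of all), and the skipping junction in 91 (3.97% of all). A, the junctions and the flanks belong to one transcript and to the contrast that chose the events, so these shares carry no test and no weight beyond description. All 6 exon and junction probes reached the margin in 51 events (1.63% of all). Median margins were 2.26 for C1, 2.38 for C2, 2.05 for A, 1.94 for C1:A, 2.08 for A:C2 and 1.83 for C1:C2, against medians between -0.95 and -0.80 over all events.

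**Figure D2:**
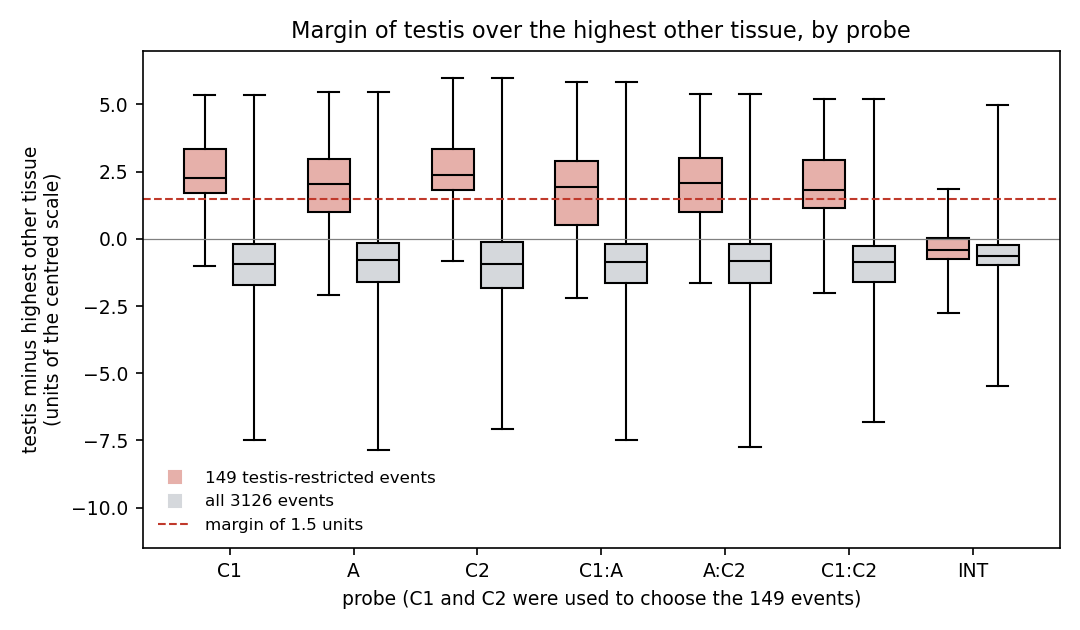
Margin of testis over the highest of the other 9 tissues (units, centred arrays) by probe, for the 149 events and for all 3126; boxes show quartiles and median, whiskers the lowest and highest value. The median of the 149 lies above the dashed line at 1.5 for the exon and junction probes, and at -0.42 for INT.

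Events with the larger level margins tended to have larger margins in A and the junction probes too. Across the 149 events, which share the same arrays, the level margin correlated with the margin of C1:C2 at r = 0.61 (Spearman's rho 0.60), of A at 0.52 (0.50), of C1:A at 0.51 (0.52) and of A:C2 at 0.50 (0.51). With the INT margin r was 0.06 (rho 0.11). The level margin is the value on which the events were chosen, and the other margins come from the same transcripts and contrast. The correlations are thus a description only. Events are not independent replicates, and no p is given.

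In 46 events the A margin stayed under 1.5. Of these, 23 had an A probe that was dim in all 10 tissues. In 16 of the 23 both inclusion junctions were dim in every tissue too, so that a skipped exon and probes that read poorly cannot be told apart there. In the other 7 an inclusion junction was bright in at least 1 tissue, and in 5 of them in testis. In 6, A was bright in testis and dim elsewhere, in 13 it was bright in testis and in another tissue, and in 4 it was dim in testis and bright in another tissue. A read lower in testis than in the highest of the other tissues in 21 events. That tissue was liver or salivary in 4 events each, brain or kidney in 3 each, heart, lung or spleen in 2 each and muscle in 1.

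By their junctions the 149 events fell into 5 sets. Both inclusion junctions and the skipping junction had margins of 1.5 or more in 57 events (2.02% of all events). Only the inclusion junctions did so in 18 (0.928% of all) and only the skipping junction in 19 (1.06% of all). In 37 events just 1 of the inclusion junctions reached the margin, whatever the skipping junction did (3.61% of all), and in 18 no junction did (92.4% of all). The sets are ranges of a continuous measure and not types.

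**Figure D3:**
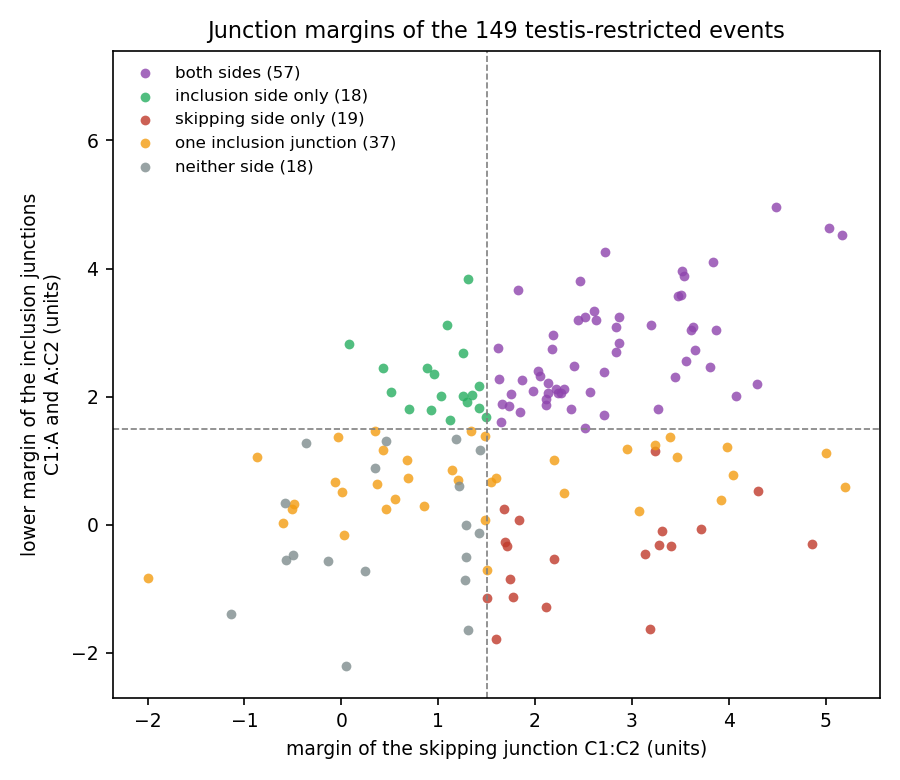
Margin of the skipping junction C1:C2 (horizontal) against the lower of the margins of C1:A and A:C2 (vertical), in units, 1 point per event, coloured by set with its number of events; dashed lines mark 1.5. The 57 events with both sides fill the upper right, the 18 with inclusion only the upper left, near the line, and most of the 19 with skipping only lie far below the horizontal line.

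Among the 57 events in which the inclusion and skipping junctions all had the margin, A had a margin of 1.5 or more in 56, and it was bright in testis in all 57. The skipping junction was bright in testis in 55. The clearest were Ben491 and Ben742. In Ben491 the testis array read 6.19 for C1:A, 6.24 for A:C2 and 6.25 for C1:C2, whereas the other tissues read at most 1.04, 1.76 and 1.12. Its A probe also read 4.88 in muscle and 2.65 to 3.74 in the remaining tissues, against 6.46 in testis. The A probe was thus bright outside testis, whereas the flanks and junctions were not. In muscle C1 read 1.07, C2 1.81 and the junctions at most 1.01. Whether the A probe there read this exon or another transcript was not tested. In Ben742 the 3 junctions read 7.51, 7.51 and 7.35 in testis, and brain was the next highest for each, at 2.96, 2.41 and 2.40. In both events the probes for inclusion and for skipping thus read high in testis. Whether a junction probe also binds the other form was not tested, and probe values do not give the ratio of the forms.

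Ben3870, with the largest level margin, belonged to this set and was not equally silent at every probe. Its C1:A junction read 7.03 in testis and at most 1.70 elsewhere, in brain. Its skipping junction read 5.93 in testis and 3.39 in brain, but 0 to 0.718 in the other tissues. Brain thus stood apart from the remaining tissues in the skipping junction. The level of Ben3870 in brain, 1.93, was the highest outside testis, followed by 1.80 in heart. A:C2 was at 6.79 in testis and between 2.60 and 3.54 in the other tissues.

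In the 18 events with inclusion junctions alone, A was bright in testis in all 18 and had a margin of 1.5 or more in 16. The median margin was 2.14 for C1:A, 2.40 for A:C2 and 1.11 for C1:C2. The skipping junction was dim in all 10 tissues in 11 of these events and bright in testis in 7, and its margin was above 0 in each of the 18. It stayed under 0.5 in only 2, Ben2330 and Ben3751, named after their values were seen. Ben1985 had the largest A margin. Its A probe read 7.48 in testis, 2.07 in brain and 0.0970 to 1.40 in the other tissues, a margin of 5.48 that was also the largest of the 149, ahead of Ben3870 at 5.16. Its junctions read 4.02 for C1:A, 7.23 for A:C2 and 1.41 for C1:C2 in testis, with at most 0.887, 1.91 and 0.341 elsewhere. In Ben1522 the inclusion junctions read 5.61 and 5.76 in testis against at most 1.26 and 1.91 elsewhere, in heart, and C1:C2 read 2.60 against at most 1.27. The lower of its inclusion margins was 3.84, against 3.12 in Ben1985.

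In the 19 events with the skipping junction alone, the median margins were 2.19 for C1:C2, 2.08 for C1 and 2.09 for C2, but -0.24 for A, 0.07 for C1:A and -0.32 for A:C2. The skipping junction was bright in testis in 18. The A margin was below 0 in 11, and A and both inclusion junctions stayed under 0.5 in 12. A was dim in all 10 tissues in 12 of the 19, and in 9 of them so were both inclusion junctions. The alternative exon of those 9 events was therefore not read above the limit in any tissue. One event, Ben1478, named after its values were seen, went the other way in its exon body, with an A margin of 3.03 beside junction margins of 1.27 for C1:A, -1.29 for A:C2 and 2.12 for C1:C2.

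The exon body was bright in another tissue in 5 of these 19 events. Ben2588 was one. Its skipping junction was at 6.12 in testis and between 0.486 and 1.87 elsewhere, and C2 at 6.18 in testis and between 1.19 and 2.43 elsewhere. Its A probe read 2.58 in testis, within its range of 1.30 to 3.55 elsewhere, and was highest in salivary. The inclusion junctions were still highest in testis, C1:A at 3.502 followed by salivary at 2.90, and A:C2 at 3.18 against at most 2.02. Both inclusion junctions of Ben2588 were bright in testis, so the set it falls into does not mean that inclusion was unread there.

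Ben4055 and Ben2686 had the lowest A margins of the 149. For Ben4055, flanks and skipping junction were highest in testis, with C1:C2 at 5.66 there and 2.33 to 4.05 elsewhere. Heart and muscle were the tissues in which its exon read highest. C1:A read 3.83 in heart and 2.92 in muscle, 2.07 in testis and 2.06 in brain, and 0.460 to 0.907 in the other tissues. A:C2 read 3.60 in heart, 3.28 in muscle, 2.37 in testis and 2.33 in brain. For Ben2686, A read 1.43 in testis, the lowest of the 10 tissues, and 3.56 in kidney, the highest. Its C1:C2 read 3.48 in testis and 0.246 to 1.75 elsewhere, and both inclusion junctions were dim in every tissue.

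In Ben94 the A probe was bright in tissues where the flanks were dim. Its flanks and skipping junction were high in testis, C1 at 7.26, C2 at 7.51 and C1:C2 at 6.35, against at most 2.38, 4.23 and 1.48 elsewhere. A read 3.86 in testis, within 2.91 to 4.17 in the other tissues. A:C2 was also highest in testis, at 6.27, and it was bright in each of the 9 others, at 4.92 to 5.36. In 16 of the 149 events A was bright in another tissue in which both flanks were dim. The same was true of A:C2 in 23 events, of C1:A in 18 and of C1:C2 in 12. The rule favours dim flanks outside testis, and these counts were not made over all events, so they have no baseline. Whether such probes also bind other transcripts was not tested.

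**Figure D4:**
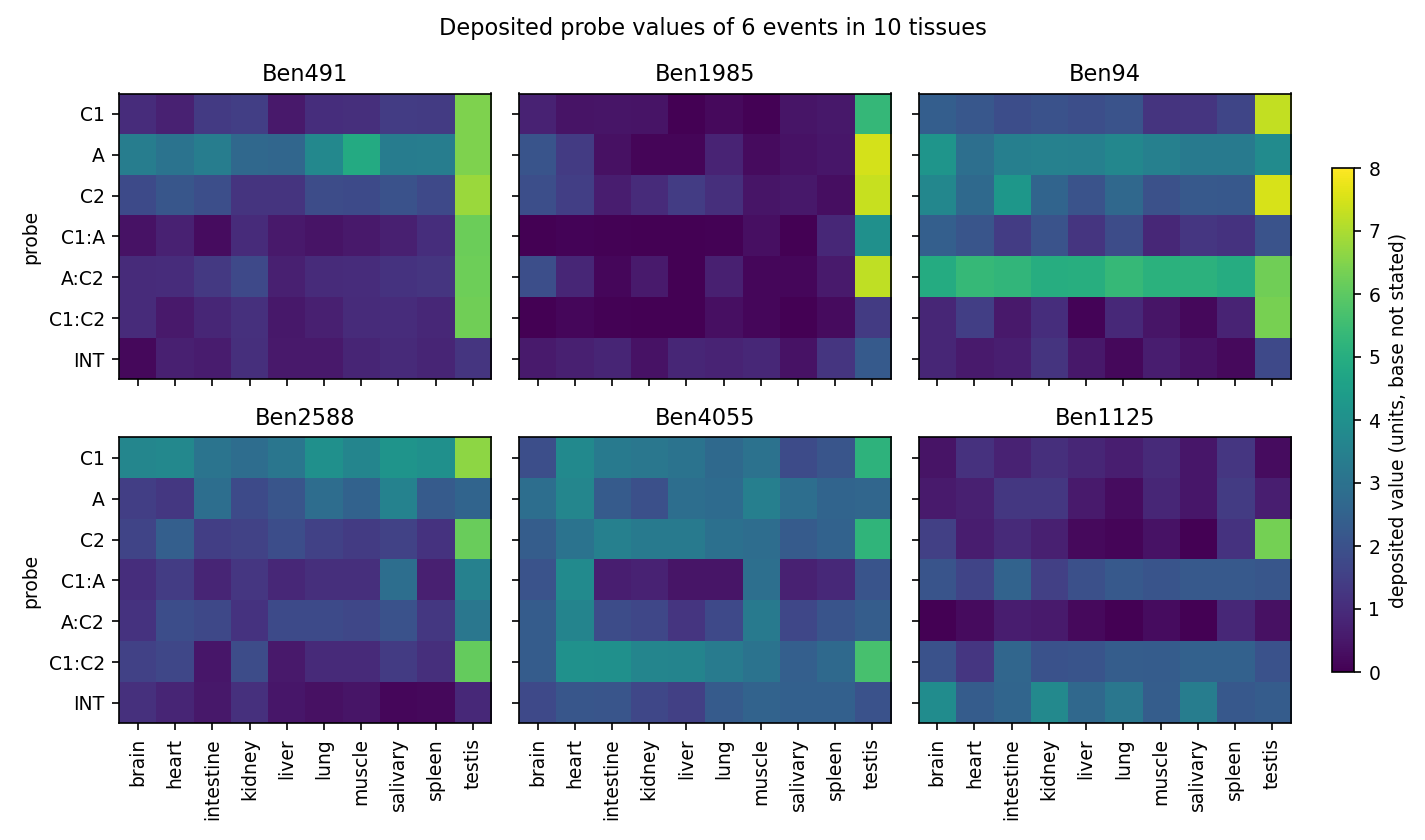
Deposited values of the 7 probes (rows) in the 10 tissues (columns) for 6 named events, on one colour scale in units. Testis is the last column: all exon and junction probes are high there in Ben491, all but C1:C2 in Ben1985, and only C2 in Ben1125. In Ben94, Ben2588 and Ben4055 the margins of testis are largest for C1, C2 and C1:C2. A:C2 of Ben94 is high in all 10 tissues and highest in testis.

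The 37 events with 1 inclusion junction were divided between 22 in which A:C2 had the margin and 15 in which C1:A had it. The skipping junction also reached 1.5 in 6 of the 22 and in 9 of the 15. A had a margin of 1.5 or more in 28 of the 37 and was bright in testis in 33. The margins of the 2 inclusion junctions lay 1.5 or more apart in 25 of the 37 and under 0.5 apart in 3. Ben4046, named after its values were seen, only straddled the threshold, with 1.63 for C1:A and 1.47 for A:C2.

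Events Ben2261, Ben2262 and Ben2263, the only run of 3 successive numbers and named after their values were seen, all belonged to this set. Their A margins were 2.66, 3.48 and 3.91. Ben2261 had margins of -0.83 for C1:A, 3.22 for A:C2 and -1.998 for C1:C2. Ben2262 had 0.67, 3.63 and 1.54 for the same junctions. Ben2263 showed the opposite junction, with 4.13, 0.38 and 3.92. Whether these events lie in one gene is not given in the sources used here.

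Some of the events had successive numbers. The array held 215 different events whose number is next to that of one of the 149, and 21 of them were themselves members, 9.77%, against 4.77% of all events. These 21 events made 11 pairs. Members of a pair had levels that correlated over the 9 other tissues at r between -0.20 and 0.94, with a median of 0.39, and 5 of the 11 pairs fell into one and the same junction set. The labels do not say whether successive numbers mark one gene, so some of the 149 events may share a transcript.

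In 18 events no junction had a margin of 1.5, although the level did. Their level margins were small, with a median of 1.74, and A had the margin in 2. A and both inclusion junctions were dim in all 10 tissues in 7 of the 18, and the skipping junction in 11. Ben1125, Ben3544 and Ben4192 belonged here. In Ben4192 the skipping junction followed the flanks, at 5.22 in testis and 3.90 in heart, and missed the margin with 1.31, while A read 0.102 in testis and was listed at 0 in 6 of the other tissues.

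The INT probes differed less between testis and the other tissues than the exon and junction probes did. The INT margin reached 1.5 in 1 of the 149 events, 0.671%, against 1.02% of all events, and its median was -0.42 against -0.63 over all events. INT was highest in testis in 41 of the 149 events, 27.5%, against 12.9% of all events. The median INT value of the 149 in testis was 1.58, above the 1.23 of all events there, and in each of the other 9 tissues it was below that of all events. INT was bright in testis in 8 of the 149 events and dim in all 10 tissues in 131. The limit for bright was drawn from the INT probes of each array, so most INT probes are dim by construction. Neither count was made over all events, so both have no baseline and do not set these events apart. Against the median of the other tissues, INT in testis deviated by a median of 0.26 in the 149 events and 0.01 in all events. The same quantity for A was 3.17 in the 149 events and 0.07 in all events.

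The exceptions differed in kind. In Ben1637, the event with the INT margin of 1.85, INT read 2.52 in testis and 0 to 0.719 elsewhere. There A read 4.30, A:C2 3.53 and C2 4.48 in testis, against at most 1.65, 1.19 and 1.67 elsewhere. The 3 probes that contain C1 did not follow, at 1.56 for C1, 1.35 for C1:A and 1.44 for C1:C2 in testis, with 1.45, 1.503 and 1.41 in the highest of the other tissues. In Ben2814 INT read 3.24 in testis and 0.0211 to 1.88 elsewhere, and all exon and junction probes were highest in testis, with margins between 1.999 and 2.67. Ben2814 was the single event whose INT probe was bright in testis and dim elsewhere. Ben681 was the only one of the 149 with a bright INT probe in all 10 tissues, at 3.05 to 3.84, and its INT margin was -0.19.

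The same rule found 56 events for brain (1.79% of all) and 36 for liver (1.15% of all), the tissues with the next most events. These lists share the 10 arrays, and with 1 sample per tissue the differences between them carry no test. The fixed margin was applied to arrays of unlike spread, with an SD of 1.42 units in testis, 1.43 in liver and 1.18 in brain. After quantile normalization the rule took 87 events in testis, 24 in liver and 71 in brain. The liver and brain shares below were not recomputed on that scale, so whether they depend on the spread was not tested. The A probe had the margin in 25 of the 36 liver events, 69.4% (0.96% of all events in liver), and in 22 of the 56 brain events, 39.3% (1.6% of all events in brain), against 69.1% in testis. The skipping junction had it in 22 liver events, 61.1% (1.06% of all), and 24 brain events, 42.9% (1.44% of all), against 61.1% in testis. Inclusion and skipping junctions all had it in 14 liver events, 38.9% (0.448% of all), in 8 brain events, 14.3% (0.352% of all), and in 38.3% of the testis events.

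Events with only 1 side made up between 12.1% and 17.9% of each of the 3 lists. Inclusion alone was found in 5 liver events, 13.9% (0.16% of all), 9 brain events, 16.1% (0.672% of all), and 12.1% of the testis events. Skipping alone was found in 5 liver events, 13.9% (0.448% of all), 10 brain events, 17.9% (0.768% of all), and 12.8% of the testis events. The INT probe had the margin in 1 liver event, 2.78% (0.096% of all), and 1 brain event, 1.79% (0.224% of all).

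**Figure D5:**
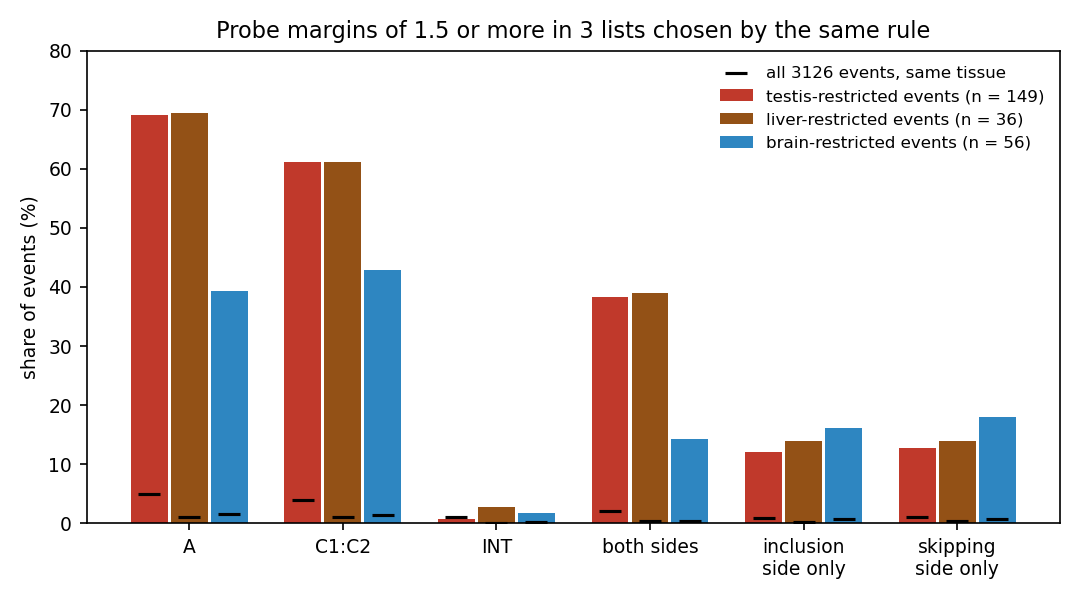
Share (%) of the testis-, liver- and brain-restricted events, chosen by the same rule, whose A, C1:C2 or INT probe had a margin of 1.5 or more in that tissue, or that fell into a junction set; black marks give the share of all 3126 events. Testis and liver bars are alike for A (69.1% and 69.4%) and for both sides (38.3% and 38.9%), and the brain bars are lower there (39.3% and 14.3%).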

How the data were processed

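Values were taken from the deposited table of 21882 probe values for each of the 10 samples. The authors deposited them as a score on a compressed, log-like scale that never falls below 0. Not given in the sources used here are its base, the dyes, the background correction and any scaling between arrays. Array medians lay between 2.04 and 2.19, and 0.635% to 3.33% of values per array were exactly 0. Every sample column was used.

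The median of each array was subtracted from its values. The margin, the level (mean of C1 and C2) and the threshold of 1.5 units are those of the rule that selected the events, and the same threshold was applied to each probe. No filter on low values was used, so all 149 events are described. With 1 sample per tissue no test was run, and precision is limited by the small number of arrays. Named events were the extremes of each measure, at most 2 at each end. The events and the lists were chosen with earlier results of these data known. The steps were tested on simulated data. The planted events stood well above the threshold in testis, with both flanks raised alike. That test thus does not cover small margins or diverging flanks. The software was pandas 2.3.3 and numpy 2.4.6 under Python 3.11.15, with figures by matplotlib 3.10.9.

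The alternatives were quantile normalization, columns as deposited, other thresholds, each flank past the threshold, a filter on dim flanks, the median as comparator and each tissue left out of the comparator.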

Additional observations from a re-analysis of the deposited data

How the results depend on the processing

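No paired analysis was possible because there was 1 sample per tissue and nothing was tested. Of 107 recomputed counts, 77 lay within 1.5 times the value reported. Under quantile normalization, however, the only count to stay within that range was that of events with skipping alone, at 13. Columns as deposited moved none by more than 1.5 times. The number of events was 150 to 162 when any single tissue was dropped from the comparator, which by construction can only keep or raise it. The cause of the shifts was not tested, except that other thresholds and filters change counts by construction. Signal is a limit: 38 events had a dim skipping junction in all 10 tissues.

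Under quantile normalization 87 events met the rule, with margins of 1.5 or more in 56 for A, 53 for C1:A, 54 for A:C2, 58 for C1:C2 and 0 for INT. Inclusion junctions alone were found in 10, both sides in 31, no junction in 8 and all 6 probes in 24. A rule threshold of 1.0 gave 252 events, with no junction in 73 and INT in 4. At 2.0 it gave 98, with skipping alone in 11, no junction in 4 and INT in 0. With each flank past 1.5, no junction reached it in 5 and INT in 0, and with both flanks bright in testis INT did so in 0. At a probe margin of 1.0, INT passed in 4 and no junction in 6. At 2.0, INT passed in 0, no junction in 39 and all 6 probes in 30. Against the median of the other tissues, INT passed in 5, both sides in 90, no junction in 6 and all 6 probes in 87. With the silent side held under 0.5, chosen after seeing the data, inclusion alone was left in 2 events.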
